A study of Populus trichocarpa with 15 samples.

Results

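The regions described here are stretches of leaf chromatin under 1000 bp wide that were called open in every one of 14 ATAC-seq libraries of wild *Populus trichocarpa*, the black cottonwood. Peaks of the 14 libraries that overlapped or touched were merged, and the members were selected on the calls themselves: a merged region on chromosomes 1 to 19 had to be narrower than 1000 bp and to hold at least 1 peak base of each library. The rule kept 9382 of the 55198 merged regions on the chromosomes (17.0%), and the whole series held 55335 merged regions. Another 340 regions were also called in all 14 libraries but were 1000 bp or wider, 10441 were called in 10 to 13 libraries, 21809 in 2 to 9 and 13226 in 1.

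ATAC-seq uses a transposase that inserts sequencing adapters where DNA is not packed against nucleosomes, so that reads pile up over accessible DNA. In plants such short accessible stretches lie mostly at promoters and at more distant regulatory DNA, where transcription factors bind and nucleosomes are displaced. A stretch that is open in every sample of a tissue may be open in all its cells or only in some of them. Peak lists of leaf tissue do not tell these apart.

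The leaves came from wild trees in Oregon and were frozen in liquid nitrogen. Each library came from a different branch: 5 from tree 13, 5 from tree 14 and 4 from tree 4. Trees 13 and 14 are the 2 stems of 1 individual, whereas tree 4 is a separate tree, so each side of a comparison is 1 stem or 1 individual and the p-values describe these trees only. No group carried an engineered allele or received a treatment, ages of the branches are not in the labels, and the lists hold no gene names, so the leaf label could not be checked against marker genes. A library titled 1.1, whose title gives tree 1 and whose peak names give tree 4, was placed in no group.

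Between 12801 peaks (branch 13.5) and 39694 peaks (branch 14.3) stood in a list, a median of 27252.5. Read depth was unknown, so a long list and a deeply sequenced library cannot be told apart. The members took 24.3% of the peaks of the longest list and 73.6% of the peaks of the shortest. In each library between 9425 and 9796 peaks lay in members. The rule asks for a peak of every library in each of the 9382 members, so these counts were near equal by construction. The shares of the lists follow from that and from list length.

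Members were spread over all 19 chromosomes. Together they covered 4.76 Mb, or 1.22% of the 391 Mb between the start of the coordinates and the last peak of each chromosome, which is called the extent below, since chromosome lengths were not used. Over the whole extent there were 24.0 members per Mb. Chromosome 9 had the most, with 36.2 per Mb (470 members in 12.98 Mb), followed by chromosome 2 with 33.6 per Mb and chromosome 8 with 33.1 per Mb. Chromosome 19 had the fewest, with 11.4 per Mb (182 members in 15.9 Mb), preceded by chromosome 11 with 14.1 and chromosome 17 with 14.6. The highest density was therefore 3.17 times the lowest. With only peaks of a −log10 q of 10 or more, chromosome 2 had the most members per Mb in place of chromosome 9, chromosome 19 still had the fewest, and the rank correlation of the order of chromosomes with the one above was 0.68.

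The chromosomes that were rich in members were those rich in peaks of any kind. All merged regions together ranged from 90.3 per Mb on chromosome 19 to 192 per Mb on chromosome 9, a 2.12-fold range, and the members' share of them ranged from 12.6% (chromosome 19) to 19.4% (chromosome 8), a 1.54-fold range. Across the 19 chromosomes the rank correlation of members per Mb with other regions per Mb was 0.96, and with chromosome extent it was 0.17. Both densities come from the same lists and the same extents, so the first of these is a description and not a test. The spread between chromosomes was 2.25-fold for regions called in 10 to 13 libraries, 2.12-fold for those called in 2 to 9 and 1.73-fold for those called in 1, so the spread was wider in the classes called in more libraries. The 340 broad regions had a 4.35-fold range, on smaller numbers.

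**Figure D1:**
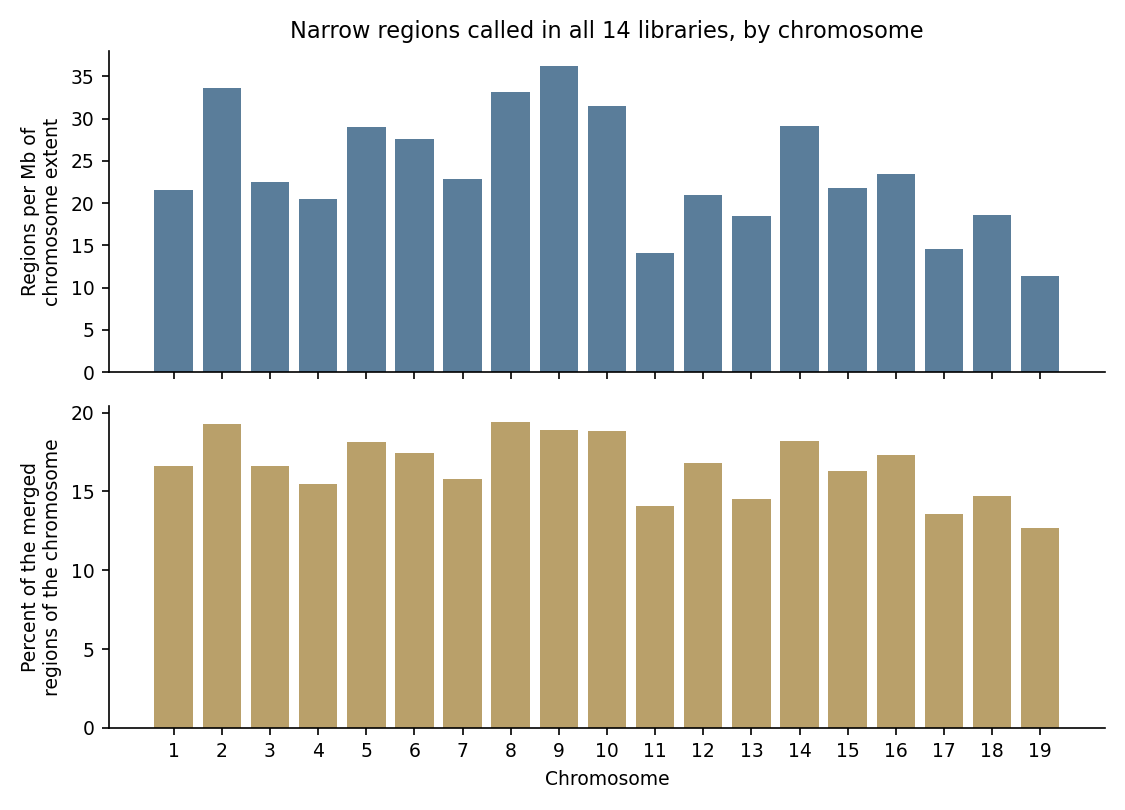
The upper bars give narrow regions called in all 14 libraries per Mb of extent on each of the 19 chromosomes, and the lower bars give them as a percent of all merged regions there. Density runs from 11.4 per Mb on chromosome 19 to 36.2 on chromosome 9, whereas the share runs only from 12.6% to 19.4%.

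The members themselves looked alike on every chromosome. Their median width per chromosome lay between 457.5 and 495 bp and the median part of a member covered in all 14 libraries between 38.7% and 43.6%. The median of the mean −log10 q, the deposited significance of the peak averaged over the 14 libraries, lay between 8.41 (chromosome 8) and 9.38 (chromosome 11). Chromosome 11 had the second lowest density of members and the highest median significance, and chromosome 8 had the third highest density and the lowest median significance. The ends of the density order did not differ in this way. Chromosome 9, with the highest density, had 8.59 and chromosome 19, with the lowest, had 8.76, both below the 8.94 of the median chromosome.

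Along the chromosomes members were sparsest near the middle. With each extent cut into 10 equal bins and the chromosomes pooled, there were 24.3 members per Mb in bin 1, 28.9 in bin 2, 17.5 in bin 5 and 27.0 in bin 10. The emptiest bin was one of bins 3 to 8 on 15 of the 19 chromosomes, and on chromosome 19 bin 5 held 1 member. All merged regions dipped in the same place, from 162 per Mb in bin 2 to 106 in bin 5, and the members' share of them stayed between 15.9% and 17.9% in all 10 bins. The 20% of the extent at each end together held 44.5% of members, against 42.4% to 45.3% of the other classes of regions. Position along the chromosome therefore set members little apart from other regions, whereas the share differed more between chromosomes.

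**Figure D2:**
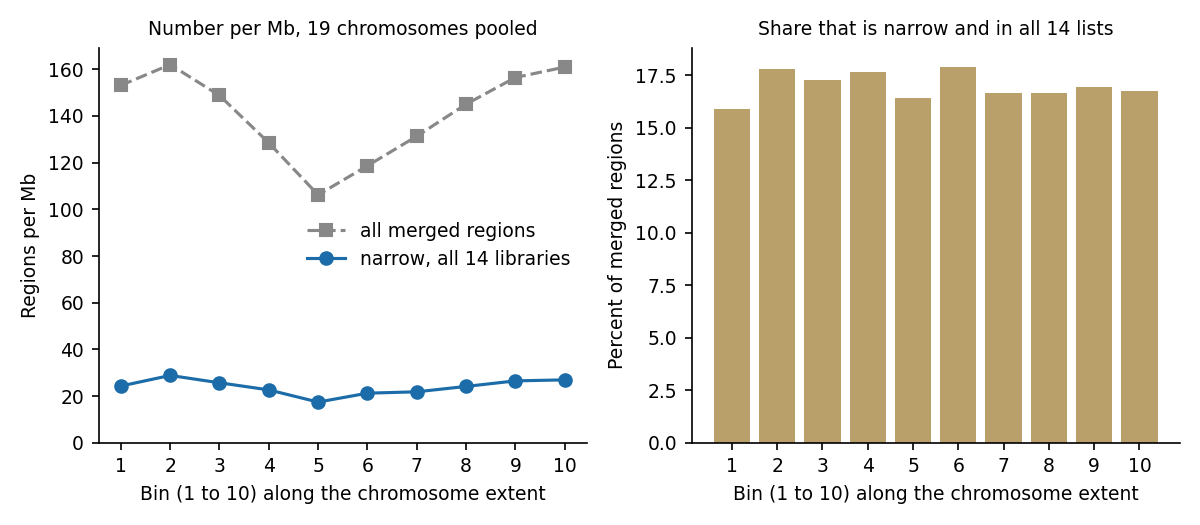
Left, merged regions per Mb (squares) and narrow regions called in all 14 libraries per Mb (circles) in 10 bins along the chromosome extent, with the 19 chromosomes pooled. Right, the second as a percent of the first: density falls to 17.5 per Mb in bin 5, while the share stays between 15.9% and 17.9%.

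On the scale of 1 Mb, members were unevenly spread. Among 381 full windows of 1 Mb the median window held 22 members, the 25th percentile was 12 and the 75th was 35. Chromosome 8 had the fullest window, Chr08:3000000-4000000, with 69 members among 268 merged regions. In 41 windows (10.8%) there were 5 members or fewer, and the fullest 20% of the windows held 39.3% of the members. Where regions were dense, a larger share of them were members: 12.1% in the 41 windows with under 50 regions, 13.3% with 50 to 99, 15.1% with 100 to 149, 17.4% with 150 to 199 and 19.1% in the 84 windows with 200 or more.

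Full windows without any member numbered 6. Of these, 2 lay on chromosome 8 and 1 each on chromosomes 2, 3, 7 and 15, and they held between 1 and 59 merged regions called in fewer libraries or wider. The longest stretch between neighbouring members was Chr03:2546218-4789289, which ran for 2243 kb and held 58 merged regions. It was followed by Chr10:1244558-2838383 (1594 kb, 43 regions) and Chr08:14978334-16526492 (1548 kb, 43 regions). The lists do not say which sequence could be mapped, so an empty stretch was not told apart from one where reads cannot be placed.

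Between neighbouring members the median distance was 18.6 kb (25th percentile 7.08 kb, 75th percentile 44.4 kb, 9363 distances), and the mean was 41.0 kb. The shortest was 45 bp. Regions called in 10 to 13 libraries had a median distance of 18950.5 bp to the next of their class. Distances from 10 to 50 kb made up 45.2% of all, those under 5 kb 18.2% and those of 100 kb or more 8.34%. By chromosome the median distance ran from 14.2 kb on chromosome 8 to 31.0 kb on chromosome 17.

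Some members sat in tight groups, which was not particular to them. Distances under 1 kb to the next region of the same class were 4.89% for members and 4.57% for regions called in 10 to 13 libraries. They were 9.99% for those in 2 to 9, 8.60% for those in 1 and 0% for the broad ones. With members less than 2000 bp apart joined, there were 701 pairs, 38 groups of 3, 6 of 4 and 1 of 5, which took 16.5% of the members. The group of 5 lay at Chr13:16191094-16197804 and was 6710 bp long. It adjoined the fullest window of 100 kb, Chr13:16200000-16300000, which held 18 members among 51 regions. The extent of chromosome 13 ended inside that window, at 16264433, so the window was not full. Chromosome 13 as a whole had 18.4 members per Mb. Among the members, 20.2% (1897 of 9380) had another member as the next region along the chromosome. The next region was a member for 18.0% of regions called in 10 to 13 libraries, for 16.8% of those in 2 to 9, for 14.4% of those in 1 and for 12.4% of the broad ones, while members were 17.0% of all regions.

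Member widths ran from 192 to 999 bp with a median of 476 bp (25th percentile 380, 75th percentile 608). The most frequent class was 400 to under 500 bp, with 25.1% of the members, and 24.0% were 300 to under 400 bp wide. At the limit of the rule 96 regions of all 14 libraries were within 50 bp below 1000 bp and 72 were at it or less than 50 bp above, so the limit cut through a falling slope. The narrowest member, Chr07:7105290-7105482, was 192 bp wide, followed by Chr13:2890347-2890540 (193 bp) and Chr04:21776704-21776904 (200 bp). The widest were Chr01:12019995-12020994 (999 bp), Chr07:4208307-4209305 (998 bp) and Chr08:14489601-14490599 (998 bp).

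Regions on each side of the limit were set side by side. Of the widest members, Chr01:12019995-12020994 had a −log10 q of 4.01 to 11.002 over the 14 libraries (median 6.14), Chr07:4208307-4209305 of 3.23 to 7.60 (median 5.04) and Chr08:14489601-14490599 of 6.25 to 15.6 (median 9.60). Just outside, Chr07:10366821-10367821 (1000 bp) had 3.41 to 7.95 (median 4.97), Chr01:10590981-10591982 (1 bp wider) had 3.81 to 9.74 (median 6.67) and Chr01:33045836-33046837 (of the same width as the last) had 5.24 to 11.1 (median 7.25). The ranges inside and outside the limit overlapped.

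A merged region is as wide as the union of its peaks, so the stretch called in every library is narrower. The bases covered in all 14 libraries numbered a median of 182 per member (25th percentile 124, 75th percentile 264), a median of 41.2% of the member, and added up to 1.91 Mb. In 3113 members (33.2%) at least 50% of the bases were covered in all 14 libraries, and in 222 over 75% were. At the other end, 215 members (2.29%) had no base covered in all 14, although each library had a peak somewhere in them. These 215 were wider, with a median of 631 bp against 472 bp for the rest, and 98 of them had exactly 1 peak in each library.

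The peaks of a member mostly lay on top of each other. A single peak in each library was found in 8300 members (88.5%). The midpoints of the 14 libraries' peaks had a median SD of 26.5 bp within a member (25th percentile 18.3, 75th percentile 40.4). Peak starts of a member spanned a median of 116 bp over the libraries and peak ends a median of 118 bp. Whether the edges of a member moved together was not examined.

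Most constant in position, among members with 1 peak in each library, was Chr12:11620430-11620676. Its 14 midpoints had an SD of 4.18 bp and lay within 15 bp of each other, and all libraries shared 168 of its 246 bp. The next were Chr13:801594-801935 (SD 4.29 bp), Chr10:13364235-13364609 (4.46 bp), Chr10:8636704-8636948 (4.84 bp) and Chr07:14157254-14157657 (4.93 bp). All 5 had a mean −log10 q of 14.6 or more, above the 75th percentile of members, which was 12.0.

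Among the 5 is a member that stood apart for its combination of small width and high significance. Chr10:8636704-8636948 was 244 bp wide with a mean −log10 q of 34.4 ± 10.1 (SD, n = 14). Of the 94 members under 250 bp it had the highest mean, the second highest being 16.5 and the median 8.60. Its values were 30.2, 43.5, 37.1, 43.5 and 15.2 in branches 13.1 to 13.5. In branches 14.1 to 14.5 they were 45.0, 49.5, 37.3, 33.8 and 31.6. Tree 4 had 19.1, 21.8, 36.7 and 36.8 in branches 4.2 to 4.5. The trees overlapped, and the lowest library was 13.5. Only the peak of branch 13.5 covered all 244 bp, and the peaks of the other libraries covered 152 to 218 bp. With peaks of at least 159 bp only, the region was called in 9 of the 14 libraries.

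Least constant in position among members with 1 peak in each library was Chr08:3208576-3209413, whose midpoints had an SD of 142 bp and spanned 536.5 bp of its 837 bp. One of its peaks, in branch 4.3, covered 140 bp, and another, in branch 13.3, covered 805 bp. Its −log10 q ran from 2.46 (branch 4.3) to 7.95 (branch 13.4). The next were Chr09:1123077-1123701 (SD 120 bp), Chr08:11554655-11555312 (112 bp), Chr01:33057314-33058013 (99.7 bp) and Chr05:22526933-22527783 (98.2 bp). None of these 5 had a base covered in all 14 libraries, and their mean −log10 q lay between 3.995 and 4.997, below the 10th percentile of members of 5.58.

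Peaks in members were on the whole among the more significant of their lists. Each peak was placed as a percentile of −log10 q in its own list, and the mean over the 14 libraries had a median of 75.1 over the members (25th percentile 60.6, 75th percentile 87.3). In 645 members (6.87%) the peak was in the most significant 10% of the list in all 14 libraries, and in 4041 (43.1%) it was in the upper 50% in all 14. Another 21 lay in the lower 50% in all 14. Being called everywhere did not require a strong peak: 979 members (10.4%) had a −log10 q under 3 in some library, where the lists begin at about 2. Calls chose the members, so these percentiles describe them and test nothing.

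The same member differed in significance from library to library. The highest −log10 q of a member was a median of 2.69 times its lowest over the 14 libraries (25th percentile 2.29, 75th percentile 3.22), with a range of 1.29 to 7.97. How far the peaks of a pair of libraries ranked alike over the 9382 members was a rank correlation of 0.73 on average over 91 pairs (0.54 to 0.84). It averaged 0.71 within tree 13, 0.75 within tree 14, 0.76 within tree 4, 0.72 between trees 13 and 14 and 0.74 between those and tree 4. Branch 13.5, with the shortest list, had the lowest mean over its pairs (0.62) and branch 14.3, with the longest, the highest (0.78).

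The 5 members that ranked highest were strong in every library. Chr03:16979240-16979787 led with a mean −log10 q of 39.1 ± 5.88 (SD, n = 14), from 29.4 in branch 14.2 over a median of 38.8 to 48.5 in branch 14.3. Its lowest percentile was 99.9, in branch 13.5, and 400 of its 547 bp were covered in all 14 libraries. Chr12:13490177-13490616 followed with 27.0 to 51.2 (median 37.6), and 352 of its 439 bp were shared. Chr02:11088165-11088754 had 25.1 to 47.6 (median 34.7) and 483 of 589 bp shared, Chr14:5043023-5043875 had 21.0 to 50.6 (median 34.8) and 560 of 852 bp shared, and Chr16:5199994-5200481 had 27.4 to 44.7 (median 31.6) and 316 of 487 bp shared. These 5 differed in −log10 q by less than their spread over the libraries, and 13 members in all had a mean of 30 or more.

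Percentiles end at 100, so members at the top of every list have little room to differ, and a small SD of percentile among them says nothing of how constant their −log10 q was. The first 3 and the last of the 5 above were among the 5 of smallest SD of percentile, and Chr02:11490435-11490895 (25.4 to 39.8, median 34.2) completed the group. Least constant was Chr01:7610170-7610485, with an SD of 29.9 percentile points and a −log10 q of 2.69 (branch 4.3) to 13.1 (branch 13.2). The next 4 were Chr03:21562762-21563105 (2.91 to 12.99), Chr02:25073307-25073586 (2.96 to 15.1), Chr08:8865586-8865936 (2.66 to 16.3) and Chr16:1987466-1987850 (2.24 to 12.99). In each of these 5 the trees overlapped.

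**Figure D3:**
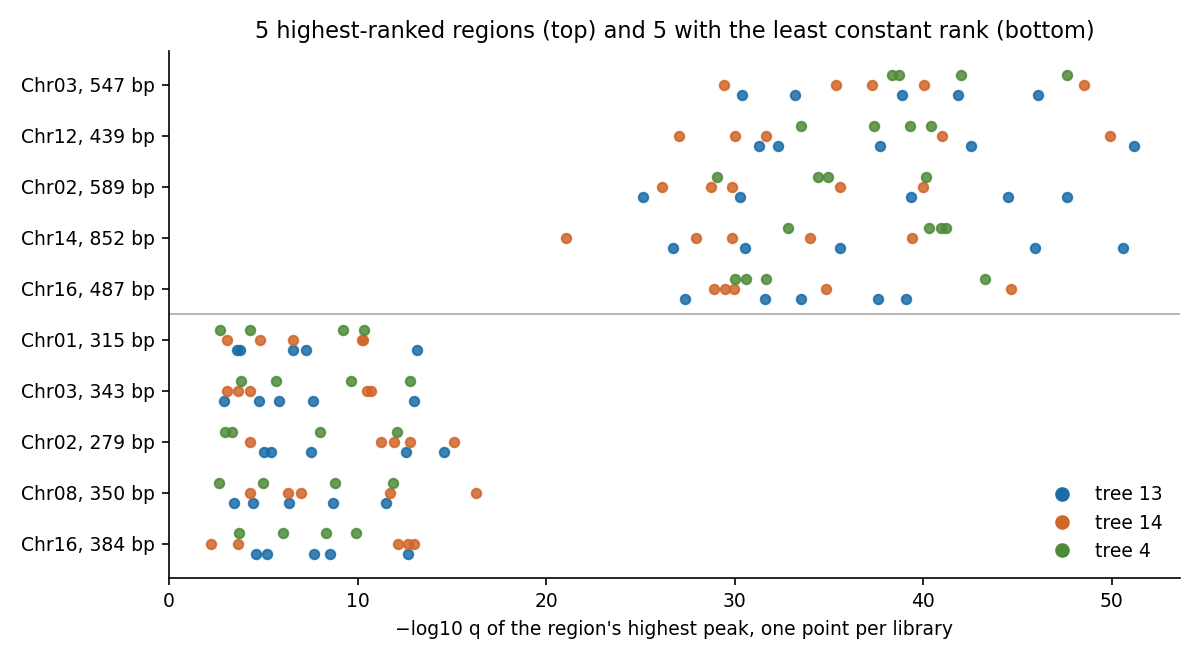
Deposited −log10 q of the highest peak in each of 14 libraries (1 point each, coloured by tree) for the 5 members of highest mean percentile, above the line, and the 5 with the largest SD of percentile, below it. The upper 5 lie between 21.0 and 51.2 and the lower 5 between 2.24 and 16.3, and within each member the trees overlap.

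More significant members were also more sharply placed, though not narrower. When members were ordered by mean percentile and cut into 4 groups of like size, the median share of bases covered in all 14 libraries was 22.4%, 36.0%, 46.3% and 59.2% from the lowest to the highest group. The median SD of midpoints was 38.8, 28.2, 23.1 and 19.004 bp. The members without any shared base numbered 200, 14, 1 and 0. Median width in the same order was 495, 463, 454 and 490 bp, and the rank correlation of width with mean percentile over members was -0.011, against 0.68 for the number of shared bases. All of these measures come from the same peaks, so these are descriptions.

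The wider members held their peaks less tightly, in part by construction. A member is as wide as the union of its peaks, so scattered or several peaks widen it. From members under 300 bp to those of 900 bp or more, the median SD of midpoints rose in steps from 14.8 to 79.7 bp and the share with a single peak in each library fell from 100% to 26.3%. The median share of bases covered by all 14 libraries was 46.0% in the narrowest class and 30.9% in the widest. Median mean −log10 q stayed between 8.14 and 9.11 in all 8 classes of width.

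The study set branches, stems and individuals side by side, and members were compared in the same way. For each library the median over members was taken of 5 measures, and 10 exact two-sided permutation tests over libraries were run, where p can go no lower than 0.00794 for tree 13 against tree 14 and 0.000999 for both stems against tree 4. None of the 10 differences was larger than the spread between libraries (each adjusted p = 0.905). Members were chosen for a peak in every library and a width under 1000 bp. Regions that the trees call differently were therefore not compared, and these tests say nothing of them. Single libraries ranged widely, and the trees overlapped in each measure.

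The median number of bases covered per member was 357, 367, 311, 300 and 308 bp in branches 13.1 to 13.5, and 338, 285, 379, 330 and 294 bp in branches 14.1 to 14.5. In branches 4.2 to 4.5 it was 372, 297, 346 and 341 bp. Tree 13 averaged 329 ± 31.0 bp (SD, n = 5) and tree 14 averaged 325 ± 37.7 bp (SD, n = 5), a difference of 3.40 bp (exact permutation test, p = 0.881). The stems together averaged 327 ± 32.5 bp (SD, n = 10), 12.1 bp below the 339 ± 31.1 bp of tree 4 (SD, n = 4; exact permutation test, p = 0.533). As a share of the member, the median library covered 74.1%, from 63.0% in branch 14.2 to 83.1% in branch 14.3.

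The other measures gave like results. The median list percentile of members was 75.6 ± 9.26 in tree 13, 79.3 ± 4.85 in tree 14 and 78.8 ± 4.73 in tree 4 (exact permutation tests, p = 0.532 and p = 0.831). The rule ties this percentile to list length, so these p-values bear on the lengths of the lists and not on the members alone. The median distance of a library's midpoint from the median of the 14 was 15.4 ± 2.99 bp, 14.6 ± 3.01 bp and 14.1 ± 1.80 bp (exact permutation tests, p = 0.683 and p = 0.657). Members with more than 1 peak in a library were 2.66 ± 1.44%, 3.39 ± 0.852% and 2.22 ± 0.858% (exact permutation tests, p = 0.365 and p = 0.240). The first p of each pair is for the stems and the second for the stems together against tree 4.

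**Figure D4:**
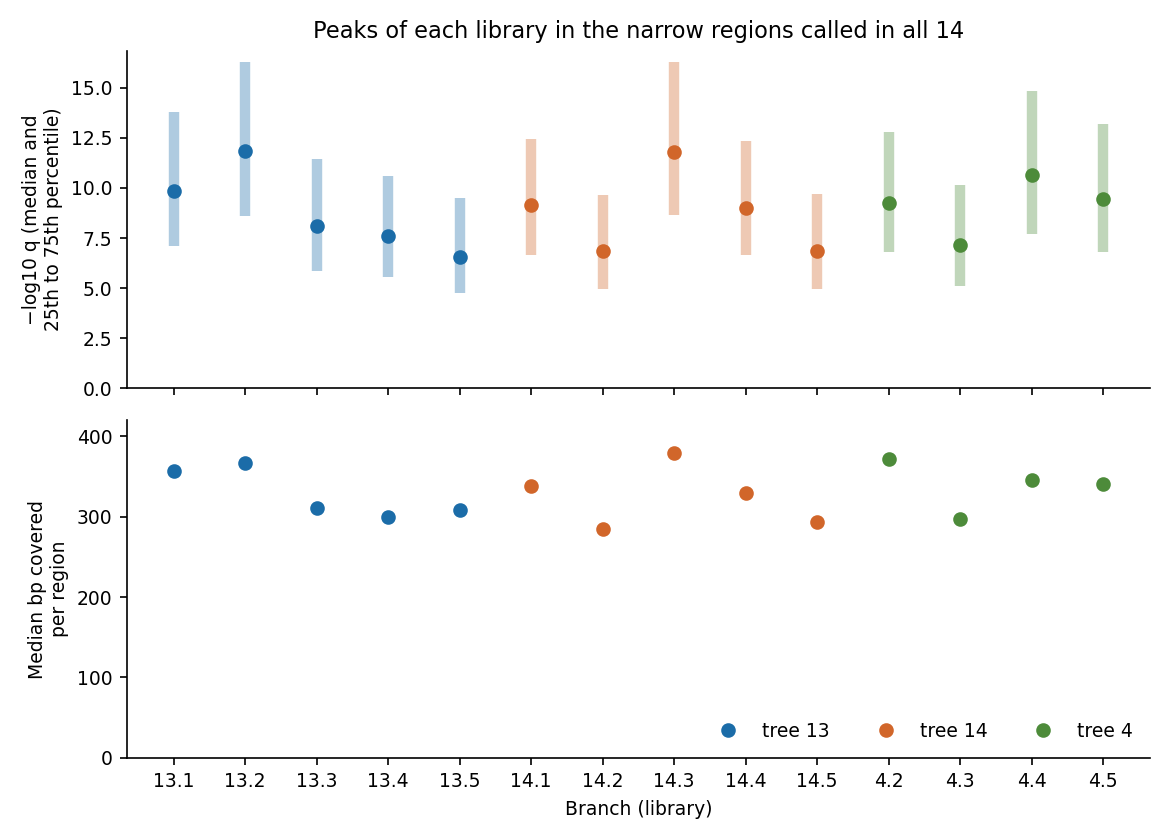
For each of the 14 libraries, coloured by tree, the upper panel gives the median −log10 q of its peaks in the 9382 members (point) with the 25th to 75th percentile (bar), and the lower panel the median number of bases it covers per member. Medians of −log10 q run from 6.55 (branch 13.5) to 11.8 (branches 13.2 and 14.3), bases covered from 285 to 379 bp, and the trees overlap in both.

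The number of peaks in a list moved with these measures. Over the 14 libraries the median −log10 q in members had a Pearson r of 0.89 with list length (permutation test, p = 6e-05, adjusted p = 0.00015) and a Spearman rho of 0.82 (p = 0.0008, adjusted p = 0.002). List length and this median both come from the −log10 q values of the same list, so their relation is in part built in. The median list percentile of members had r of 0.94 and rho of 0.93 (permutation tests, each p = 2e-05, the smallest that these resamples can give, and adjusted p = 0.0001). By the rule members are about equally many in every list, which ties this percentile to list length. That relation is therefore a description, and its p tests nothing. For the median number of bases covered, r was 0.70 (permutation test, p = 0.0049, adjusted p = 0.00613) and rho 0.66 (p = 0.0123, adjusted p = 0.0154). For the midpoint distance, r was -0.78 (permutation test, p = 0.00138, adjusted p = 0.0023) and rho -0.74 (p = 0.00338, adjusted p = 0.00563). For the percent of members with several peaks, r was 0.55 (permutation test, p = 0.0432, adjusted p = 0.0432) and rho 0.47 (p = 0.0941, adjusted p = 0.0941). These 5 relations were adjusted together, and without branches 13.5 and 14.3, the farthest from the median list length, r was 0.86, 0.93, 0.66, -0.62 and 0.40 in the same order. The labels give no batch within which they could be recomputed.

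Member by member, no difference in strength passed the test. Only regions with a peak in all 14 libraries were tested, so a region without a peak in some tree could not be called. The result is limited to how strong the peaks were where every library had one. For each library the −log10 q values of the 9764 regions called in all 14 libraries, on chromosomes or not and of any width, were ranked and turned into normal scores, and limma compared trees with Benjamini-Hochberg adjustment over the 9764. Of the 9382 members, 0 were called at an adjusted p under 0.05 for tree 13 against tree 14 and 0 for the stems against tree 4, beside 0% of all regions tested in both comparisons. At an unadjusted p under 0.05 there were 577 members (6.15%) beside 6.09% of all regions tested, and 550 (5.86%) beside 5.79%. The scores are in units of the SD of a library's ranking. The median absolute difference of a member was 0.22 between the stems and 0.20 between the stems and tree 4, against a median SE of 0.29 and 0.27.

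Few members had ranks that did not overlap between the trees. In tree 13 the rank of 56 members was above all libraries of tree 14, beside 0.584% of all regions tested (0.597% of members), and of 49 members below all of them, beside 0.522% (0.522% of members). Against tree 4 the stems were above in all libraries for 11 members and below for 11, each beside 0.113% of all regions tested (0.117% of members). All 4 shares were near those of the regions tested, of which the members are 9382 of 9764.

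The members with the smallest p, chosen after their values were seen, had these levels. At Chr14:4169543-4169867 the −log10 q was 3.91, 5.37, 4.27, 4.92 and 3.93 in branches 13.1 to 13.5, and 12.3, 6.62, 11.5, 8.20 and 7.91 in branches 14.1 to 14.5. In branches 4.2 to 4.5 it was 6.71, 3.36, 10.03 and 5.46. Every library of tree 13 was below every library of tree 14, and tree 4 overlapped both. The difference of the stems was -1.55 ± 0.29 (SE) on the score scale, with an adjusted p of 0.307 in limma.

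For the stems against tree 4 that member was Chr16:875967-876258. Its −log10 q was 8.72, 13.8, 8.99, 10.9 and 6.15 in branches 13.1 to 13.5, and 11.6, 9.56, 11.6, 8.94 and 8.21 in branches 14.1 to 14.5. Tree 4 had 5.002, 4.22, 9.37 and 4.61 in branches 4.2 to 4.5, so 3 of its 4 libraries were below all 10 of the stems and branch 4.4 was among them. The difference was 1.30 ± 0.26 (SE), with an adjusted p of 0.579 in limma.

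How far the set depends on single libraries was read by leaving each out of the rule. With 13 libraries the rule keeps 9387 to 12002 regions. Of the regions kept by the other 13, the library left out had a peak in 97.7% to 99.99%, except for branch 4.3, with 95.8% (9384 of 9796), and branch 13.5, with 78.6% (9429 of 12002). Branch 13.5 also had the lowest percentile of the 14 in 3361 members, but members made up 73.6% of its list, so their percentiles there are low by construction. Its list was the shortest and held no peak under 159 bp, whereas the shortest peak of the other lists was 90 to 138 bp. The set is thus, to a large part, the narrow regions that the shortest list also holds.

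The library titled 1.1 was not used by the rule and had 27009 peaks. The names of its peaks give tree 4, branch 1, so it may be another branch of a tree that already supplied 4 of the 14 libraries. It had a peak in 9363 of the 9382 members (99.8%). Among merged regions the share with a peak in 1.1 was 5.18% of those called in 1 library, 31.5% in 5, 74.8% in 10, 96.7% in 13 and 99.8% in 14. Of the 9148 members that had both a base covered in all 14 libraries and a peak in 1.1, that peak reached the shared bases in 9144. Over members the rank correlation of its −log10 q with the mean of the 14 was 0.81.

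In 7797 of the 9363 members with a peak in 1.1 (83.3%) its −log10 q lay within the range of the 14 libraries, in 1485 (15.9%) it was above all 14 and in 81 (0.865%) below all 14. At the member of highest mean percentile, Chr03:16979240-16979787, 1.1 had a −log10 q of 40.2, and at Chr12:13490177-13490616 it had 41.5. Of the 27 members named by rule, 5 had a value in 1.1 above all 14 libraries, and the farthest above was Chr05:22526933-22527783, with 9.16 against a highest of 6.62. Only Chr10:8636704-8636948 among the 27 was below all 14, with 12.3 against a lowest of 15.2. The 19 members without a peak in 1.1 were narrow, with a median width of 304 bp, and their median mean percentile was 49.1. In the 4 groups by mean percentile, the share of members with a peak in 1.1 was 99.4%, 99.8%, 99.96% and 100%.

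**Figure D5:**
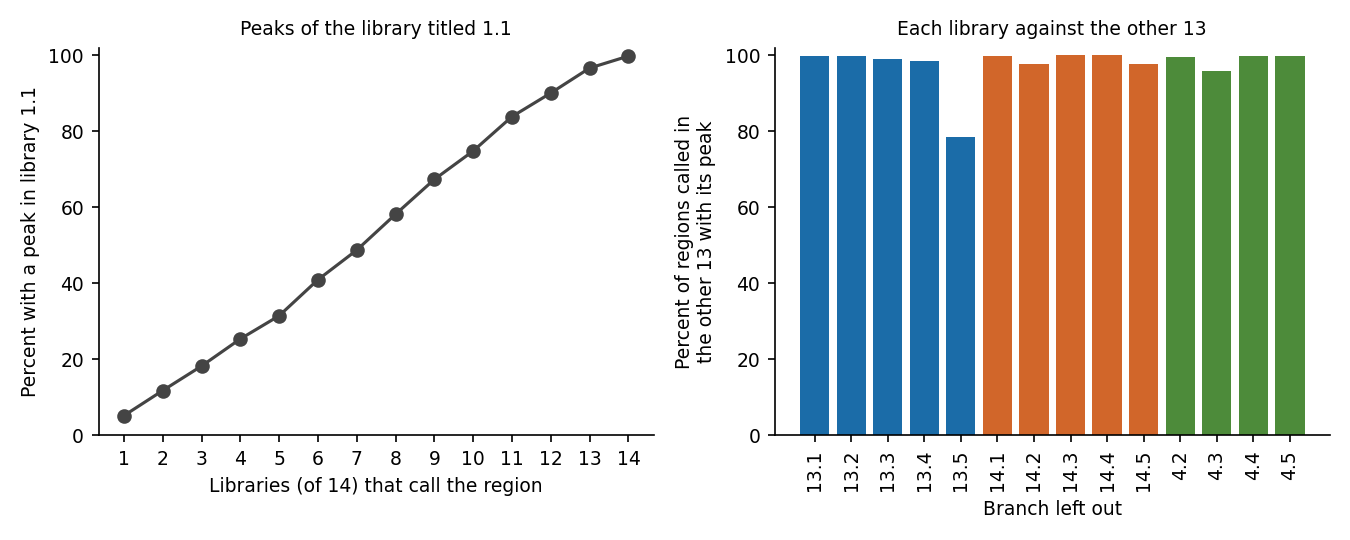
Left, percent of merged regions with a peak in the library titled 1.1, by the number of the 14 libraries that call the region: it climbs from 5.18% to 99.8%. Right, for each branch left out, percent of the narrow regions called in the other 13 libraries that have its peak: branch 13.5 has 78.6%, branch 4.3 95.8% and the rest 97.7% or more.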

How the data were processed

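ATAC-seq of leaves was deposited as 1 peak list per library, 15 in all, so peaks were called per library. The submitters' processing notes name Trimmomatic 0.36, Bowtie 1.1.1 and MACS2 2.1.2 without saying what each did. Genome build, thresholds and any shift of reads were not given in the sources used here. Each deposited list gives peak start and end, a score, a −log10 p-value and a −log10 q-value. The deposited score equalled 10 times the −log10 q-value, cut to a whole number, for at least 99.9766% of peaks of a list, and was not used. Lists began at a −log10 q of 2.00 to 2.05 and hold no counts, summits or fold enrichment, so no counting interval is given, and a region without a peak may still be open below the caller's threshold. Coordinates are printed as deposited, whether they start from 0 or from 1 being unknown, and width is end minus start.

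The number before the point in a title gave the tree. The library titled 1.1 entered no comparison. The members and lists were chosen with earlier results of these data known. A member's value in a library was its highest −log10 q there. Percentiles were taken within a library's whole list. The labels do not say that branch numbers pair the stems, and scores of same-numbered branches did not deviate together (r from -0.057 to 0.086), so no block entered the tests. Named regions were the 5 members of highest mean percentile, 5 each of smallest and largest SD of percentile and, among members with 1 peak in each library, of midpoint, the 3 narrowest, the 3 widest and the 3 just over the width limit, the longest gaps and the fullest windows. Any other is said to have been chosen after its values were seen.

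Permutation tests over relations with list length used 100000 resamples. Annotation and sequences were not used, since peaks reached past the last genes of the annotation held and, in the list of branch 13.1, did not gather at the ends of its genes. The alternatives are listed in the closing section. Versions were R 4.3.3, limma 3.58.1, scipy 1.17.1, Python 3.11.15, matplotlib 3.10.9, pandas 2.3.3 and numpy 2.4.6.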

Additional observations from a re-analysis of the deposited data

Results flagged for a closer look

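The list titled 1.1 entered no comparison of trees, and it held a peak in 9363 of the 9382 members. No control library allows a background to be set beside this. Regions that 1 of the 14 libraries called had a peak in 1.1 in 5.18% of cases. In 15 groups of library values screened for a library far from the rest of its tree, the screen flagged 0. It did not flag branch 13.5, although its median list percentile of members was 60.5. The other branches of tree 13 had 74.8 to 84.7.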

How the results depend on the processing

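The number of members rests on the thresholds of the lists. It was 4061 when only the most significant 50% of each list was used, 889 with a −log10 q limit of 10, 4832 with all lists cut to the 12801 most significant peaks, 4377 when a library had to cover 50% of a region and 5212 with a width limit of 500 bp. Median width moved to 523 bp with the −log10 q limit and to 390 bp with the limit of 500 bp. Median spacing moved to 46851, 257943, 38919, 41347.5 and 34197 bp under the 5 settings in the order first given, and to 25401 bp with peaks of at least 159 bp. The range between chromosomes was 1.54-fold as a share of regions. Fewer regions kept by a stricter rule lie farther apart by construction; the cause of the other moves was not tested. Peaks of at least 159 bp (7168), merging across 100 bp (9349), touching peaks kept apart (9382), a limit of 1500 bp (9694), adding 1.1 (9285) and leaving out branches 13.4 and 14.1 (9551) stayed within 1.5 times the main number.

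Without each library in turn, members numbered 9387 to 12002, median width was 442 to 474 bp and median spacing 15027 to 18581 bp, in each case farthest from the full set without branch 13.5. For tree 13 minus tree 14 the difference was -6.65 to 16.85 bp in bases covered, -1.65 to 3.39 points in share covered, -6.05 to 0.00598 in list percentile, -0.2375 to 1.9125 bp in midpoint distance and -1.02 to -0.185 points in members with several peaks, and for both stems minus tree 4 it was -26.1 to -1.10 bp, -5.86 to -1.03, -3.63 to 0.55, 0.033 to 1.37 bp and 0.436 to 1.09. None of these differences passed the test in full or without a library. Calls of strength between the stems numbered 0 to 1: Chr01:9361533-9361948 was called without branch 13.1 (adjusted p in limma = 0.0491, and 0.459 with it) and Chr10:7815153-7815648 without branch 13.3 (0.0146, and 0.581 with it). Calls against tree 4 numbered 0 in every such fit. With branch number as a replicate block, calls stayed at 0, and 528 members had an unadjusted p under 0.05 between the stems, against 577.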
